A study of Homo sapiens with 14 samples.

Results

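The short-arm subtelomeres were taken as the first 1500000 bp of chromosomes 1 to 12 and 16 to 20 in GRCh38, which gave 17 windows. A DRIP peak belonged to a window when its start, as listed, lay before that limit, and the rule uses no measured signal. The 8 Nalm-6 peak lists held 7264 such peaks of 1318662 in all. Nalm-6 is a human pre-B cell leukemia line, and the isogenic cells compared here carried SF3B1 K700K (WT) or SF3B1 K700E (MT), the hotspot change of this splicing factor. There were 2 untreated WT, 2 untreated MT, 2 RNH1-treated WT and 2 RNH1-treated MT libraries, and RNH1 here means RNase H digestion of the extracted DNA before immunoprecipitation. All groups shared the S9.6 antibody and the same restriction cocktail, no label gives the number of clones or separate cultures, and p-values therefore measure only the spread between these libraries.

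An R-loop is a DNA:RNA hybrid with a displaced DNA strand, and it forms mostly where a transcript stays paired with its template. RNase H degrades the RNA of the hybrid, so a peak that is absent after digestion is taken as a bona fide R-loop peak. Subtelomeres lie between the telomere repeats and the unique arm, and they mix duplicated gene families near the tip with gene-rich, GC-rich unique sequence further in. Telomeres and subtelomeres are known sites of R-loops, because RNA is transcribed through the subtelomere into the TTAGGG repeats.

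Peaks of the 4 untreated libraries were merged into 2253 regions over the windows, and 5 stretches of 151 bases show the kinds of sequence behind the results below. Each is centred on the summit of the highest untreated peak, with runs of 3 or more G or C and of 6 or more A or T in capitals. They are the plus strand of GRCh38, and fold enrichment is the height of a peak over its local background as deposited.
MT untreated libraries alone, 3p, chr3:460291-460441: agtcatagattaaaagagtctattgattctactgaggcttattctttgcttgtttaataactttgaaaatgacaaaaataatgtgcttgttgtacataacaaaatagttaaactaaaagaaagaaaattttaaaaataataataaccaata
WT untreated libraries alone, 6p, chr6:905227-905377: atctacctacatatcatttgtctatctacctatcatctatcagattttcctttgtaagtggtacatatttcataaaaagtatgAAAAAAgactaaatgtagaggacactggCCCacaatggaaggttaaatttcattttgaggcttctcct
WT untreated libraries alone, 4p, chr4:780477-780627: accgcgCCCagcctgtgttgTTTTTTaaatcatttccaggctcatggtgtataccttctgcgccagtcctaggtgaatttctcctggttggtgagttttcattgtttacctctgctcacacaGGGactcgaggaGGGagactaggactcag
All untreated libraries, beside TTLL10-AS1 on 1p, chr1:1171663-1171813: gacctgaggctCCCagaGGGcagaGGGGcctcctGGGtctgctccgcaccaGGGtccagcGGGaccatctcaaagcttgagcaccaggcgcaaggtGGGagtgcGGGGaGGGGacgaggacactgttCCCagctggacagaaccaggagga
All 8 libraries, 3p, chr3:933475-933625: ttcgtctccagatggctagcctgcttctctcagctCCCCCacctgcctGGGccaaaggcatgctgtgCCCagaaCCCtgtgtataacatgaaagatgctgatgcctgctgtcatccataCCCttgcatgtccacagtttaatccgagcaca

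The windows held fewer peaks per Mb than the rest of the autosomes in all 4 untreated libraries. The untreated WT libraries had 665 and 774 peaks in the windows and the untreated MT libraries had 1323 and 1494. A peak in bulk DNA cannot tell fewer cells with a hybrid from less hybrid per cell. The counts were equal to 26.8 and 31.2 peaks per Mb of sequence in WT cells, against 44.2 and 46.7 in the rest of the autosomes. In MT cells they were equal to 53.3 and 60.2 peaks per Mb, against 90.4 and 105 elsewhere. The windows hold 0.901% of autosomal sequence and had 0.548%, 0.603%, 0.533% and 0.517% of the autosomal peaks of the 4 untreated libraries. The log2 density ratio of the windows over the rest was −0.72 (SE 0.05), below 0 in 4 of 4 libraries, with a 2-sided exact sign-flip permutation p of 0.13, the smallest that 4 libraries can give. The long-arm ends of the same chromosomes were at nearly the same density, with a log2 ratio of 0.04 (SE 0.01, exact permutation p = 0.13, 4 of 4 libraries above 0). The next 1500000 bp inward was denser than the windows, at −0.21 (SE 0.03, exact permutation p = 0.13, 4 of 4 libraries below 0).

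GC content was 48.2% in the windows, 49.1% in the long-arm ends, 47.3% in the next stretch inward and 40.9% in the rest of the autosomes. When the rest of the autosomes was weighted to the GC content of the windows in 1000-bp tiles, the log2 density ratio became −0.07 and 0.02 in the untreated WT libraries. It stayed at −0.35 and −0.35 in the untreated MT libraries. At equal base composition the untreated WT libraries thus had 0.95 and 1.01 times the number of peaks found elsewhere, and the untreated MT libraries 0.785 and 0.786 times. The difference between the genotypes on this scale was −0.32 (SE 0.05, exact permutation p = 0.33, the smallest that 2 against 2 libraries can give). Without chromosome 4 the values were −0.09 and 0.02 in WT cells and −0.29 and −0.29 in MT cells. This weighting was chosen after the counts were seen.

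MT cells had more peaks in the windows than WT cells, but a smaller share of their peaks lay there. Untreated libraries had 719.5 ± 77.1 peaks (SD, n = 2) in WT cells and 1408 ± 121 (SD, n = 2) in MT cells, a log2 ratio of 0.97 (SE 0.14, exact permutation p = 0.33). The background pileup was 2.99 and 3.13 in the untreated WT libraries and 3.51 and 4.35 in the deeper untreated MT libraries. Scaled to the shallowest library the ratio was 0.75 (SE 0.05), and with an equal GC distribution 0.77 (SE 0.15). As a share of the library the log2 ratio was −0.13 (SE 0.07, exact permutation p = 0.33), and −0.20 to −0.06 with any 1 of the 4 libraries left out. Bona fide peaks, taken as untreated peaks that no peak of the same-numbered RNH1-treated library of that genotype overlapped, numbered 518 and 511 in WT cells and 674 and 782 in MT cells. Their log2 ratio was 0.50 (SE 0.11, exact permutation p = 0.33) as counts, 0.17 (SE 0.12) after scaling to the shallowest library and 0.25 (SE 0.15) with an equal GC distribution, and −0.05 (SE 0.11, exact permutation p = 1.0) relative to the bona fide total of the library. The share of untreated peaks that were bona fide was 77.9% and 66.0% in WT cells and 50.9% and 52.3% in MT cells. The genotypes differed by −20.3 percentage points (SE 5.98, exact permutation p = 0.33). In the rest of the autosomes those shares were 82.0%, 65.8%, 49.0% and 51.1%, and the windows differed from the rest by a mean of −0.2 points (SD 2.69, 3 of 4 libraries above 0, exact sign-flip permutation p = 1.0).

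Many peaks of the windows were also listed after RNase H digestion. The RNH1-treated libraries still had 282 and 575 peaks in WT cells and 1081 and 1070 in MT cells. The log2 ratio of untreated over RNH1-treated peaks was 0.83 (SE 0.53) in WT cells and 0.39 (SE 0.09) in MT cells, each with an exact permutation p of 0.33. Scaled to the shallowest library, the MT value was −0.0153 (SE 0.03), so its direction turned. The WT value rested on 1 library, since RNH1-treated WT replicate 1 had the lowest background pileup (1.62, against 2.17 in replicate 2 and 2.99 to 4.35 in the untreated libraries), and without it the ratio was 0.32, while without replicate 2 it was 1.35. Between genotypes the RNH1-treated count was higher in MT cells by 1.42 on the log2 scale (SE 0.51, exact permutation p = 0.33), or 0.90 without that library. The share of RNH1-treated peaks in the windows was lower in MT cells, 0.554% and 0.557% against 0.829% and 0.759%, a log2 ratio of −0.51 (SE 0.06, exact permutation p = 0.33). The median width was 428 and 422 bp in untreated WT peaks and 443 and 441 bp in untreated MT peaks. The median fold enrichment was 4.26, 4.20, 4.24 and 4.20 in that order, and the genotypes overlapped.

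**Figure D1:**
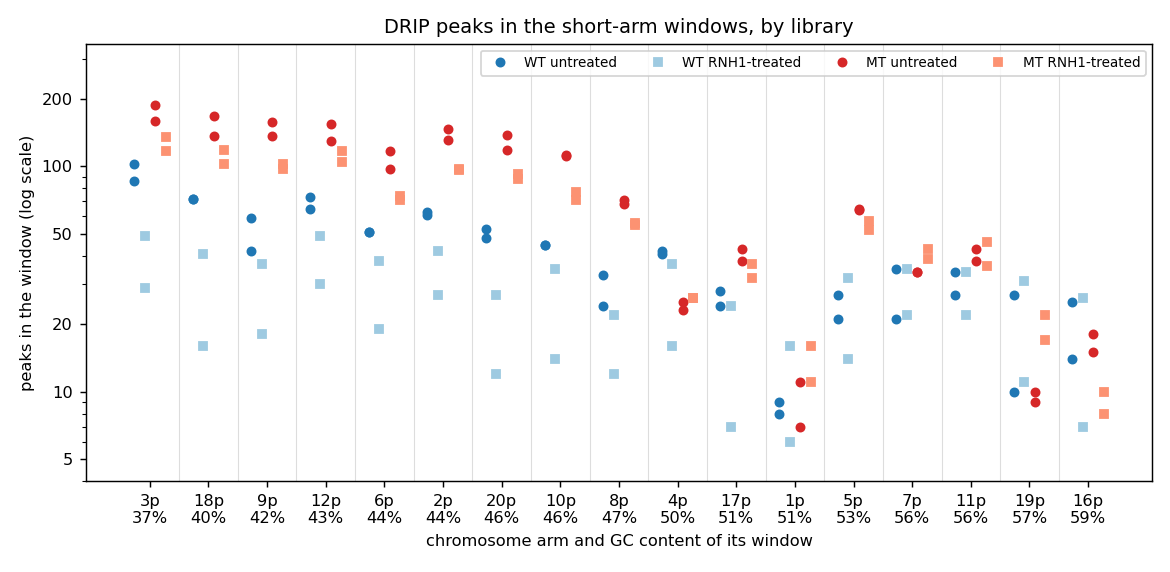
Peaks in each short-arm window (log scale, 1 point per library), with arms ordered by the GC content of the window. Counts fall from 3p, where the 8 libraries hold 29 to 188 peaks, to 16p with 7 to 26, and on 4p both untreated MT libraries lie below both untreated WT libraries.

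The arms differed more than the genotypes did. The AT-rich end of 3p, with 36.8% GC and 2 coding genes, had 86 and 103 untreated WT peaks and 160 and 188 untreated MT peaks. The GC-rich end of 16p, with 58.6% GC and 66 coding genes, had 14 and 25 peaks in WT cells and 15 and 18 in MT cells. 19p, at 56.6% GC, had 10 and 27 in WT cells and 9 and 10 in MT cells. 1p had 8 and 9 in WT cells and 7 and 11 in MT cells. The number of coding genes did not order all arms, since 20p with 32 coding genes had 62.0 untreated peaks per Mb (mean of the 4 libraries) and 8p with 6 had 34.0. Over the 17 windows peak density and GC content had Pearson's r = −0.871 and Spearman's rho = −0.89 in untreated WT cells, and −0.912 and −0.917 in untreated MT cells. Density and the number of coding genes had r = −0.706, but GC content and the number of coding genes were themselves related (r = 0.813), the 17 points share their libraries, and these are descriptions without a test.

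Both untreated MT libraries were above both untreated WT libraries on 12 of the 17 arms. Over all 1834 autosomal windows of the same length this was so in 97.9%, and both MT libraries were below both WT libraries in 0.327%. The share of arms that were higher in MT cells lay below this background. The short-arm windows also held fewer peaks, a median of 49.0 untreated peaks against 118 over all windows. Low counts overlap more easily, and their part in this was not tested. The steepest rises were on 9p, from 42 and 59 peaks in WT cells to 137 and 158 in MT cells (2.96-fold), on 5p, from 21 and 27 to 65 and 64 (2.71-fold), and on 20p, from 53 and 48 to 118 and 138 (2.53-fold). On 1p, 7p, 16p and 19p the genotypes overlapped, with 21 and 35 against 34 and 34 peaks on 7p. On 4p the order was turned, with 41 and 42 peaks in WT cells and 23 and 25 in MT cells (log2 ratio −0.79, SE 0.06).

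**Figure D2:**
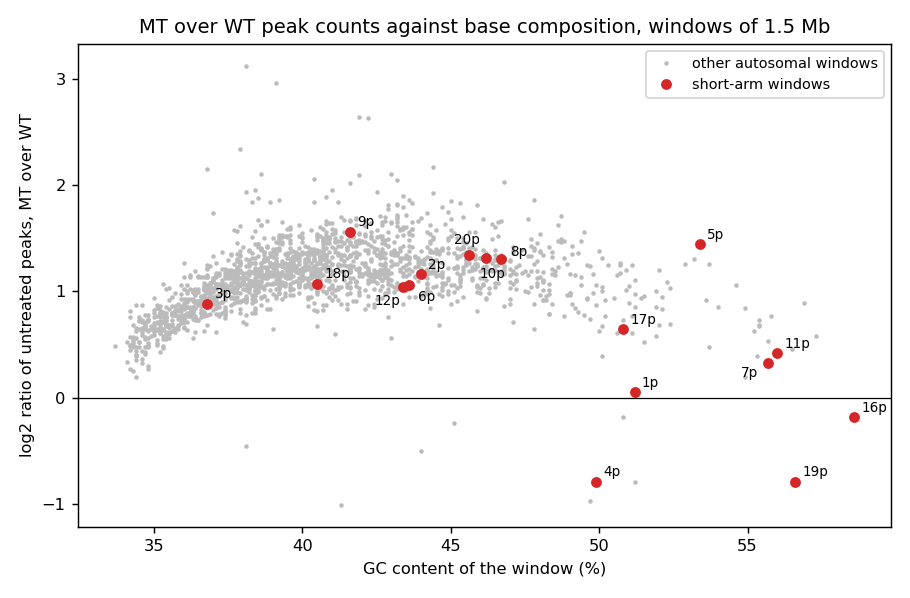
Log2 ratio of untreated peaks, MT over WT (mean of 2 libraries each), against GC content for windows of 1.5 Mb. Red points are the 17 short-arm windows and grey points the 1794 other autosomal windows with a peak in all 4 untreated libraries. 4p and 19p lie at −0.79 and 9p is the highest red point.

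The exceptions lay on arms of 49.9% GC or more, and other autosomal windows of 50% to 60% GC were seldom exceptions. Of the 7 short-arm windows with 50% to 60% GC, 3 were higher in MT cells (5p, 11p and 17p), none was lower and 4 overlapped. Of the 61 other autosomal windows in that range, 55 were higher (90.2%), 1 was lower and 5 overlapped. The window that was lower lay next to the 4p window, at 1.5 to 3.0 Mb. The log2 MT over WT ratio had a median of 0.33 in these short-arm windows and 0.89 in the other windows. GC content was not matched within the range, and the short-arm windows in it went from 50.8% on 17p to 58.6% on 16p. After RNase H digestion both MT libraries were above both WT libraries on 13 of the 17 arms, against 97.3% of all windows. For bona fide peaks MT cells were higher on 12 arms, against 74.5% of all windows, and lower on 2 (4p and 7p), against 1.91%. As a share of the library, untreated MT libraries were lower on 9 arms (31.1% of all windows) and higher on 5 (41.3%). As a share of the RNH1-treated library, MT libraries were lower on 12 arms (31.4%) and higher on 20p alone (33.2%). Within a genotype, both untreated libraries were above both RNH1-treated libraries on 10 arms in WT cells, against 92.2% of all windows, and on 12 arms in MT cells, against 93.9%.

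4p, home of a cluster of KRAB zinc-finger genes next to the tip, was lower in MT cells along a stretch that went past the window. The next 2 windows of 1.5 Mb had 33 and 40, then 29 and 36, untreated peaks in WT cells and 20 and 22, then 17 and 16, in MT cells. These 3 neighbouring windows were 3 of the 6 autosomal windows in which both MT libraries fell below both WT libraries. Each of the other 3 had at most 10 peaks in any untreated library. From 7.5 to 9.0 Mb the order was the usual one, with 34 and 37 peaks in WT cells and 62 and 75 in MT cells, and over the whole of chromosome 4 the log2 ratio was 0.96. In the first window the RNH1-treated genotypes overlapped, with 26 and 26 peaks in MT cells and 16 and 37 in WT cells.

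The 4p peaks were weaker in MT cells as well as fewer. In the first 4.5 Mb of 4p, 18 merged regions had a peak in all 4 untreated libraries, and the median pileup there was 8.7 and 9.9 times the genome background in WT cells and 5.7 and 5.98 times in MT cells. The median log2 ratio of MT over WT was −0.67, against 0.06 over 3275 such regions in the rest of chromosome 4 and 0.03 over 219 in the other 16 windows. Over all untreated peaks of this stretch, not the 18 regions alone, the median local background was 3.51 and 4.35 in the 2 MT libraries. Both values equal the genome background, which is the lowest value in a library, so lower coverage would not show. In WT cells the median was 3.77 and 3.94 over genome backgrounds of 2.99 and 3.13. In the other 16 windows the local background was above the genome background in all 4 libraries. Fewer copies of this stretch in the MT line and fewer R-loops per copy cannot be told apart in peak lists without input DNA. Among genes of the 4p window, ZNF732 had 4 and 4 peaks in WT cells and 2 and 1 in MT cells. SPON2, a secreted matrix protein, had 4 and 2 against 1 and 3, which overlapped. Of the merged regions on 4p, 16 were present in both WT and neither MT untreated library and 7 the other way round.

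**Figure D3:**
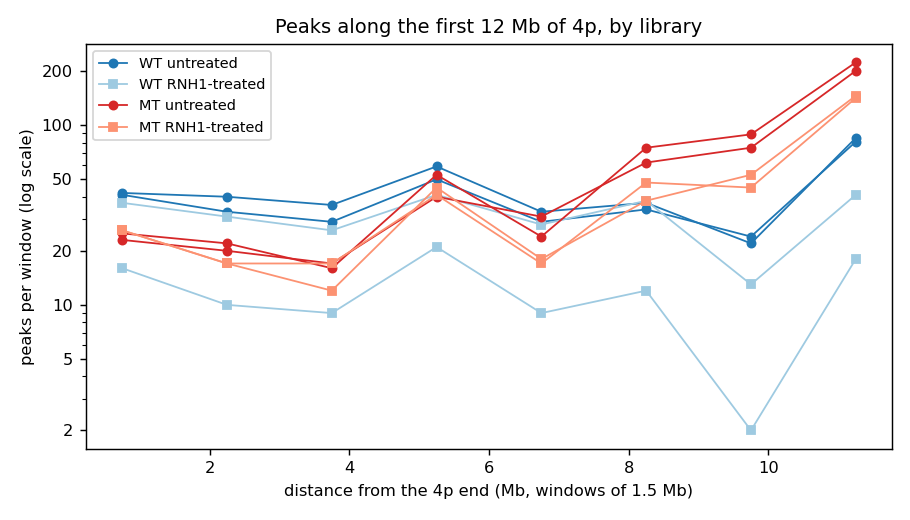
Peaks in consecutive windows of 1.5 Mb from the end of 4p (log scale, 1 line per library). Both untreated MT libraries lie below both untreated WT libraries in the first 3 windows, and above them from 7.5 Mb inward.

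Base composition at the peaks separated the genotypes, within the windows and in the rest of the autosomes. Peaks were placed in 1-kb tiles by their summits. In 1-kb tiles under 35% GC, untreated WT libraries had 71.3 and 67.4 peaks per Mb and untreated MT libraries 45.9 and 61.5. In tiles of 40% to 45% GC the values were 28.8 and 32.7 in WT cells and 87.9 and 99.1 in MT cells. In tiles of 55% GC and over they were 7.4 and 11.9 in WT cells and 8.61 and 7.4 in MT cells. MT cells were therefore higher in the middle classes and overlapped or fell below WT cells at both extremes. In the rest of the autosomes, tiles under 35% GC had 75.3 and 75.9 peaks per Mb in WT cells and 55.3 and 72.6 in MT cells. Tiles of 40% to 45% GC had 37.8 and 41.3 in WT cells there and 124 and 140 in MT cells. Outside the windows the tiles of 55% GC and over had 7.23 and 9.34 peaks per Mb in WT cells and 16.2 and 14.9 in MT cells, so the log2 MT over WT ratio there was 0.92, against −0.23 in the windows. Such tiles made up 26.7% of the windows and 4.58% of the rest. The median GC content of untreated peaks in the windows was 39.4% and 40.6% in WT cells and 43.1% and 42.3% in MT cells. In the rest of the autosomes it was 37.0% and 37.5% in WT cells and 41.7% and 41.1% in MT cells.

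**Figure D4:**
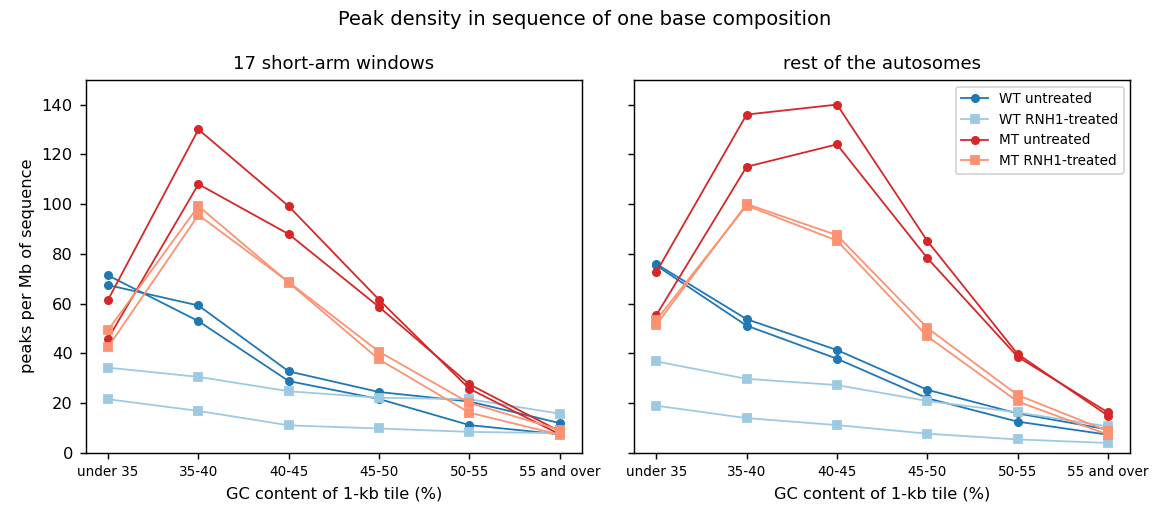
Peaks per Mb of sequence in 1-kb tiles grouped by GC content, 1 line per library, in the short-arm windows (left) and in the rest of the autosomes (right). Untreated MT libraries peak at 108 and 130 per Mb in the class of 35% to 40% GC in the windows, and fall to the WT level in the class of 55% and over on the left panel alone.

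Within the windows the peak density differed little with distance from the end. The outer 250000 bp held 98 and 111 untreated WT peaks and 209 and 231 untreated MT peaks, which was 26.2 and 29.7 per Mb in WT cells and 56.0 and 61.9 in MT cells. Between 1000 and 1500 kb the densities were 26.9 and 31.8 in WT cells and 53.8 and 61.5 in MT cells. GC content was 44.4% in the outer 250000 bp and 49.5% between 1000 and 1500 kb. Densities by distance were not compared at equal GC content. The share of peaks in the outer 250000 bp was 14.5% in WT cells and 15.6% in MT cells, and the genotypes differed by 1.09 percentage points (SE 0.26, exact permutation p = 0.33). In the outermost 50 kb WT cells had 7 and 10 peaks and MT cells 21 and 20. In that stretch 60.1% of 50-base words recur elsewhere in the genome, against 6.75% between 1000 and 1500 kb, so not every short read can be placed there, and the part of this in the counts was not tested. The first 100 kb had no peak in any library on 1p, 6p, 8p, 11p and 17p, and 18 and 16 in untreated MT cells on 2p.

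**Figure D5:**
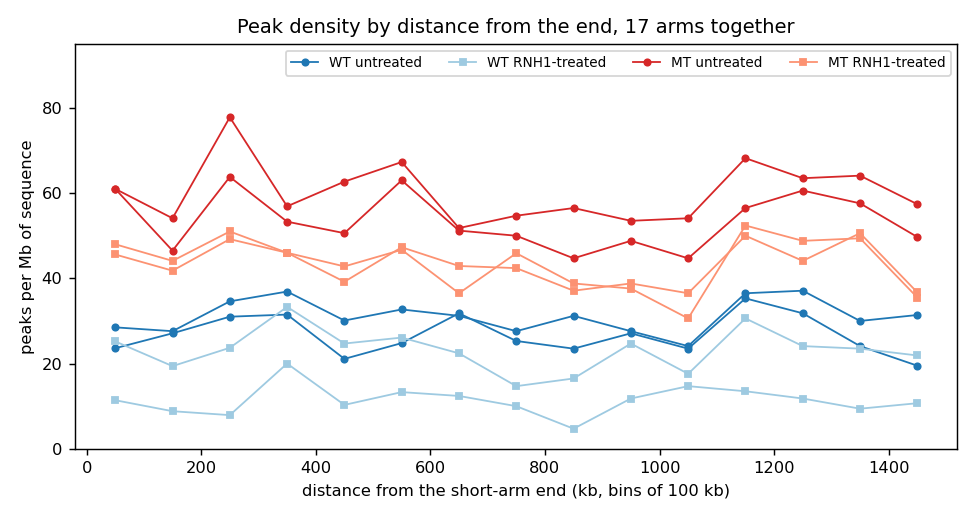
Peaks per Mb of sequence in bins of 100 kb from the short-arm end, 17 arms together, 1 line per library. The untreated MT lines stay between 44.7 and 77.8 and the untreated WT lines between 19.5 and 37.1 over the whole 1500 kb.

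Few telomere-like runs inside the windows were met by a peak, and peaks covered a small part of the windows as a whole. The windows held 76 runs of 4 or more copies of CCCTAA or TTAGGG, on 14 arms, 4740 bases in all. A peak met 1 of them. Untreated peaks covered 354 to 830 kb of the 24.82 Mb of the windows in a library, and no shortage is read from this count. No peak in a run says only that none was listed there. Single TTAGGG or CCCTAA words were in the 151 bases around the summit of 5.64% of the merged regions in the windows, against 4.75% of all stretches of that length there and 5.83% of all autosomal regions. Peaks with most of their 50-base words repeated in the genome numbered 2 and 4 in untreated WT cells and 27 and 36 in untreated MT cells, and 5, 15, 49 and 45 in the RNH1-treated WT and MT libraries. As a share of the untreated peaks of the windows they were 0.301% and 0.517% in WT cells and 2.04% and 2.41% in MT cells. In the rest of the autosomes the shares were 0.466%, 0.587%, 1.59% and 1.63%, so the higher share in MT cells was not particular to the windows. The RNH1-treated shares were 1.77%, 2.61%, 4.53% and 4.21% in the windows and 1.8%, 1.89%, 4.9% and 4.63% in the rest.

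Some genes of the duplicated families that mark subtelomeres were met by peaks. Of 51 genes of the DDX11L, WASH, FAM138, MIR1302, OR4F, TUBB8 and related families in the windows, 3 and 5 had a peak in untreated WT cells and 7 and 8 in untreated MT cells. Many are short genes or pseudogenes, so these counts are not set against those of coding genes. The RNH1-treated libraries had peaks at 2 and 7 of them in WT cells and at 10 and 9 in MT cells, so in MT cells more of them had a peak with digestion than without, and in WT cells the treatments overlapped. The region nearest to the end of 10p lay in an intron of TUBB8, a tubulin gene, at chr10:54657-55415, and had fold enrichments of 9.97 and 12 in untreated and 13.3 and 11.4 in RNH1-treated MT cells and no WT peak. On 18p the related TUBB8B was met at chr18:54279-55764 at 6.65 and 5.27 in untreated and 8.27 and 5.55 in RNH1-treated MT cells. On 19p the region nearest to the end, at chr19:104694-105123, overlapped the olfactory receptor pseudogene OR4G1P. It had 9.53 and 8.78 in untreated and 10.9 and 9.01 in RNH1-treated MT cells, and 4.36 in 1 untreated WT library. Of their 50-base words 41.8%, 46.1% and 70.3% recur elsewhere, so reads of paralogous copies may be counted at these sites. The region nearest to the end on 12p, in DDX11L8 at chr12:12333-13361, had 4.01 and 4.12 in untreated WT cells, 3.77 in 1 untreated MT library, and 7.13, 6.80, 5.90 and 6.52 in the 4 RNH1-treated libraries, where it was higher than without digestion.

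Coding genes of the windows were met less often than coding genes elsewhere. Of 384 coding genes, 33.6% and 40.9% had a peak in the gene or in the 3000 bp before it in untreated WT cells, and 36.5% and 36.7% in untreated MT cells. In the rest of the autosomes the shares were 57.3% and 59.4% in WT cells and 70.4% and 71.3% in MT cells. The share thus differed between genotypes elsewhere and overlapped in the windows. A longer gene has more room for a peak, and genes were not matched for length. The windows hold 15.5 coding genes per Mb, against 6.86 in the rest of the autosomes, and the part of gene length in these shares was not tested. Of the coding start sites, 379 lay in the windows, and a peak lay within 3000 bp of 8.18% and 10% of them in WT cells and of 12.4% and 12.9% in MT cells, against 15.6%, 17.3%, 33.9% and 36.2% elsewhere. The log2 ratio of windows over rest was −1.17 ± 0.356 (SD, n = 4, exact sign-flip permutation p = 0.13, 4 of 4 below 0). The difference of that ratio, MT minus WT, was −0.61 (SE 0.07, exact permutation p = 0.33). Sequence within 3000 bp of any annotated start site made up 32.9% of the windows, and 23.6%, 25.3%, 21.4% and 19.8% of the untreated peaks lay there.

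Long genes of several arms held many peaks, but such counts grow with gene length and no density per gene was computed. ERC1 on 12p, a scaffold of vesicle docking sites 505.4 kb long, had 24 and 26 untreated WT peaks and 52 and 64 untreated MT peaks, and 7, 13, 37 and 35 after digestion. SNTG2 on 2p, a syntrophin of 416.8 kb, had 16 and 13 peaks in WT cells and 33 and 40 in MT cells. CNTN6 on 3p, a neural adhesion molecule of 311.6 kb, had 19 and 20 in WT cells and 24 and 33 in MT cells. In these 3 genes both MT libraries were above both WT libraries. The same order held in 97.9% of all autosomal windows of 1500000 bp and in 95.3% of those of 500000 bp, so it was common over the genome. Windows are not genes, and the share over genes of like length was not computed. ADARB2 on 10p, a member of the RNA editing enzyme family, had 8 and 6 against 41 and 34, and 7, 15, 18 and 18 after digestion. In WT cells its treatments thus overlapped, and the gene runs past the window, to position 1737525. THOC1 on 18p, a subunit of the THO complex that couples transcription to mRNA export and limits R-loops, had 4 and 5 peaks in untreated WT cells, 6 and 8 in untreated MT cells, and 2, 6, 4 and 7 after digestion.

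Gene groups of known function varied in how many members had a peak, where 33.6% to 40.9% of all coding genes of the windows had one in the untreated libraries. Of 6 telomerase and DNA repair genes, 3 and 4 had a peak in untreated WT cells and 4 and 4 in untreated MT cells. TERT, the reverse transcriptase of telomerase, had 1 and 1 peak in WT cells and 2 and 2 in MT cells, with 0 and 1 left in WT cells and none in MT cells after digestion. RAD52, which pairs strands in homologous recombination, had 4 and 4 in WT cells and 8 and 8 in MT cells, and 7 and 7 in RNH1-treated MT cells. Of 8 splicing, polymerase and RNA export genes, 4 and 2 had a peak in WT cells and 2 and 2 in MT cells, and PTBP1 and CIRBP had none in any library. Of 9 B-cell and myeloid genes, 3 and 3 had a peak in WT cells and 2 and 3 in MT cells. IRF4, a transcription factor of B-cell maturation, had 2 and 1 peaks in WT cells and 3 and 3 in MT cells, and none after digestion in either genotype. ARID3A, which binds the immunoglobulin heavy chain enhancer, had 1 and 2 in WT cells and none in MT cells or after digestion. Of the 7 genes at the alpha-globin cluster 2 and 2 had a peak in WT cells and 2 and 3 in MT cells, and HBA1, HBA2 and HBQ1 had none in any library. The 4 mucin genes of 11p had peaks in 3 and 3 of them in WT cells and 2 and 1 in MT cells. After digestion 4 and 4 of these genes had a peak in WT cells and 2 and 2 in MT cells. Among all coding genes of the windows, 20.3% and 33.9% had a peak after digestion in WT cells and 34.9% and 33.6% in MT cells. Of 6 beta-defensin genes of 20p, 6 and 3 had a peak in WT cells and 3 and 3 in MT cells.

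Of the 2253 merged regions, 670 (29.7%) were in both MT and neither WT untreated library, against 32.2% of the merged regions of all autosomes. In both WT and neither MT library there were 178 (7.9%), against 8.2%, and in all 4 untreated libraries 226 (10%), against 10.4%. All 8 libraries had a peak at 61 regions (2.71%), against 2.53%. These shares lay near those of the genome. Of the regions only in MT cells, 41.3% had no RNH1-treated peak in any library, and of those only in WT cells 59.0%, near the 38.0% and 63.3% over all autosomes. The regions only in WT cells had a median GC content of 35.1%, those only in MT cells 42.6% and those in all 4 libraries 40.8%. A run of GGGG or CCCC on either strand was within the 151 bases around the summit of 51.9% of the regions only in MT cells and 38.2% of those only in WT cells, though the highest region only in MT cells held none. Over all autosomes these shares were 48.2% and 28.9%, and 57.3% of all 151-base stretches of the windows held such a run. A run of AAAAAA or TTTTTT was in 23.9% and 25.3% of the 2 kinds of region in the windows, and in 23.3% and 34.6% over all autosomes.

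The highest region found only in MT cells was chr3:459391-460385, between genes and 49974 bp beyond CHL1, a neural adhesion gene, with fold enrichments of 15.3 and 19.4 in untreated libraries and 10.6 in 1 RNH1-treated MT library. The next were chr20:1447528-1448014 in an intron of NSFL1C, a cofactor of the p97 ATPase (16.1 and 14.0, with 7.72 and 6.19 in RNH1-treated MT cells), and chr6:1100901-1101406, which overlaps LINC01622 within 3000 bp of a start site (14.6 and 13.9). The last had no RNH1-treated peak. chr18:782139-782711, in an intron of the kinase gene YES1, had 12.9 and 14.1 untreated but 25.7 and 23.9 after digestion in MT cells and 7.99 in 1 RNH1-treated WT library. chr2:1357709-1358286 in an intron of SNTG2 had 12.2 and 14.2, and 11.4 and 7.60 in RNH1-treated MT cells.

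The highest only in untreated WT cells was chr6:905027-905403, 27.9% GC and between genes, with 11.7 and 11.4, and 8.12 in 1 RNH1-treated WT library. chr2:182124-183403 had 9.82 and 12.2, and 6.51 and 7.35 in RNH1-treated WT cells. chr2:331708-331995, in an intron of LINC01865 with 27.1% GC, had 9.77 and 9.45 and no RNH1-treated peak. chr12:838970-839266 in an intron of WNK1, a kinase of ion transport, had 9.53 and 9.23, and 6.08 and 5.95 in RNH1-treated WT cells. chr3:1441326-1441704, 37109 bp beyond CNTN6, had 8.88 and 12 in untreated WT cells, yet 21 and 19.5 after digestion in WT cells and 11.0 and 10.1 after digestion in MT cells. On 4p the highest such region was chr4:779867-780696, with 7.52 and 6.91 in untreated WT cells and 4.96 in 1 RNH1-treated WT library.

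Among the highest regions in all 4 untreated libraries, chr20:1483748-1484271 in an intron of SIRPB2 had 10.8 and 12.1 in WT and 13.1 and 13.3 in MT cells. After digestion 12.9 and 10.4 remained in MT cells, and 5.72 in 1 WT library. chr2:1020976-1021477 in an intron of SNTG2 had 9.98 and 11.7 in WT and 8.91 and 11.5 in MT cells, and no RNH1-treated peak in either genotype. chr5:1354522-1354974 in an exon of LINC01511 had 8.27 and 10.9 in WT cells and 16.1 and 16.8 in MT cells. Yet 14.9 and 17.8 remained in RNH1-treated MT cells, and 5.64 in 1 RNH1-treated WT library. chr1:1171736-1172628, 428 bp from TTLL10-AS1, was the one GC-rich region of these, at 64.3% GC, and had 11.6 and 8.42 in WT and 8.24 and 7.85 in MT cells. After digestion 5.51 and 7.19 remained in WT cells, and 3.38 in 1 MT library.

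The regions highest in all 8 libraries were chosen for having a peak after digestion too, so their values are a description. chr3:933150-933806 had 7.66 and 8.06 in untreated WT, 12.9 and 13.6 in RNH1-treated WT, 10 and 12.5 in untreated MT and 16.8 and 16.6 in RNH1-treated MT cells. chr3:530483-530790 had 6.73, 8.35, 9.68, 15.3, 12.6, 13.5, 17.3 and 17.4 in that order. In both the RNH1-treated values lay above the untreated values of the same genotype, as did the medians of all peaks of the windows. chr2:709394-710386 had 9.91 and 8.95 in untreated WT cells and lower values, 8.60 and 8.89, in RNH1-treated WT cells, while in MT cells the treated values, 9.08 and 8.24, were above the untreated ones, 7.46 and 7.74. chr2:377961-378889 had 6.68 and 6.98 in untreated and 8.72 and 9.18 in RNH1-treated MT cells, and its WT values overlapped. chr20:246964-247621, 10103 bp from DEFB132, had 6.62 to 10.1. The widest merged regions were chr2:89893-92565 and chr3:846370-849042, both of 2673 bp, and chr20:850874-853500 of 2627 bp in an intron of FAM110A, and their untreated fold enrichments were 3.12 to 6.43.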

How the data were processed

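DRIP-seq reads had been mapped by the authors with BWA-MEM (GRCh38), cleared of mitochondrial and duplicate reads, and passed library by library to MACS2 for narrow peaks. They deposited 1 peak list per library with a whole-number score, fold enrichment (a ratio of peak height to local background), −log10 p, −log10 q and the summit. All deposited q values are 0.01 or lower. Read totals are not in these lists, so depth was read from the genome background pileup that the fold enrichment and −log10 p imply, 1.62 to 4.35. The 6 HEK293T RNA-seq samples were not used here. Windows, lists and members were chosen with earlier results of these data known.

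Counts, shares and densities per Mb of sequence without N were computed for each library with Python 3.11.15, NumPy 2.4.6, pandas 2.3.3 and SciPy 1.17.1. GC content, restriction sites and repeated 50-base words were read from the GRCh38 sequence. Genes are those of GENCODE 44. Genotypes and treatments were compared over libraries with 2-sided exact permutation tests (2 against 2, smallest p 0.33), and windows with the rest by exact sign flips over 4 libraries (smallest p 0.13), so no test could pass 0.05. SE is that of a difference of means. Windows of 1500000 bp with at least 50% sequence were counted over the autosomes as the background. This count was tried on simulated windows, with higher counts than most short-arm windows and larger changes. How often it finds a change at low counts was not tested.

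Named regions were, of peaks merged over the untreated libraries, the 5 only in MT and the 5 only in WT with the highest mean fold enrichment, the 5 in all 4 untreated and the 5 in all 8 libraries with the highest lowest value, the 3 widest and the nearest to each end. Of the regions nearest to an end, those of 10p, 12p, 18p and 19p are given, picked after their values were seen, and 1 region of the other kinds is not reported here. Gene lists were chosen by symbol, and a gene had a peak when one overlapped it or the 3000 bp before its start. Long genes, 4p genes and the 4p region shown were picked after their counts were seen. Alternatives covered thresholds on fold enrichment and q, window length, the summit in place of the start, repeated words, scaling to the shallowest library, replicates left out, chromosomes left out and replicates paired by number.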

Additional observations from a re-analysis of the deposited data

How the results depend on the processing

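Of the values under another setting, 231 kept their direction, or as counts of regions stayed within 1.5 times, 15 changed sign and 9 counts of regions moved by more than 1.5 times. No comparison here could pass a threshold of 0.05, so none gained or lost a call. With the replicate number as a replicate block only the p-value can change, because the mean of paired differences equals the difference of means. The untreated log2 ratio of MT over WT was thus 0.97 again (exact sign-flip permutation p = 0.5, the smallest that 2 pairs can give). The block values are among those counted as keeping their direction, and they say nothing about stability. The bona fide share, MT over WT, was 0.00481 over the first 3000000 bp, 0.0112 over the first 500000 bp, 0.00892 without chromosome 4, 0.000894 without chromosomes 16 and 19, and −0.159 to 0.0566 with 1 replicate left out. The density against the long-arm ends was −0.0247 over the first 500000 bp. The median fold enrichment, MT minus WT, was 0.0549 over the first 3000000 bp, 0.11 over the first 500000 bp, 0.24 at a fold enrichment of at least 4, 0.43 after scaling to the shallowest library, 0.0028 with repeated peaks left out, and −0.0370 to 0.0189 with 1 replicate left out. The median width, MT minus WT, was −5 bp at a q of 1e-05 or lower. After scaling to the shallowest library, untreated over RNH1-treated peaks in MT cells were at −0.0153 on the log2 scale, and bona fide peaks, MT over WT, were at 0.17, or at 0.25 with an equal GC distribution. Regions only in MT numbered 1502 over the first 3000000 bp, 207 over the first 500000 bp, 399 at a fold enrichment of at least 4, 412 after scaling, and 725 to 1071 with 1 replicate left out. The lone library then stood for its genotype. Regions only in WT numbered 363 over the first 3000000 bp, 55 over the first 500000 bp, and 194 to 382 with 1 replicate left out. The density against the rest of the autosomes fell in size from −0.72 to −0.19 at the same GC content. The settings without chromosome 4 and at the same GC content were chosen after seeing the data. Peak lists without read counts limit the precision, and the median pileup at a peak of the windows was 15 to 26 fragments over the 8 libraries.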

Other observations

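Restriction fragments under the summits were longer in the windows than in the rest of the autosomes. The median fragment, from the sites of the 5 enzymes in the GRCh38 sequence, was 1300 and 1440 bp in untreated WT and 1400 and 1380 bp in untreated MT libraries, against 1120, 1130, 1290 and 1270 bp elsewhere. The difference was above 0 in 4 of 4 untreated libraries (exact sign-flip permutation p = 0.13), and its part in the counts was not tested. Peaks of the windows were 1.2 to 3.1 percentage points richer in GC than peaks elsewhere in all 4 untreated libraries (exact permutation p = 0.13) and had a median fold enrichment that differed by −0.16 to −0.1 (exact permutation p = 0.13).

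In RNH1-treated WT libraries the windows held 1.3 and 1.1 times the peaks expected from the rest of the autosomes at the same GC content, and in RNH1-treated MT libraries 0.875 and 0.895 times. The difference between the genotypes was −0.43 on the log2 scale (SE 0.12, exact permutation p = 0.33), in the same direction as in the untreated libraries.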
